A study of Homo sapiens with 4 samples.

Results

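Interferon-stimulated genes were examined in SW1990 and PANC-1 cells, which are established human pancreatic cancer cell lines, before and after X-ray radiation. The 39 genes are well known interferon targets, taken by name with no threshold on their measured values, although earlier results of these data were known when the list was made, and each was found once among 58174 genes of the deposited table. The unirradiated and the 10 Gy irradiated cells of each line gave 1 RNA library, so there were 4 libraries in all and no replicates, and no difference between an irradiated and an unirradiated library has a replicate check. The question of the design was how the transcriptome of each line changed after radiation. The lines were grown in different media, so medium and cell line cannot be told apart. Each line is a culture of tumour cells alone, and the time between radiation and RNA collection is not given in the sources used here. Sequencing depth, as the sum of all counts, was 17939210 (unirradiated) and 18388969 (10 Gy) for SW1990 cells, and 23451153 (unirradiated) and 20154644 (10 Gy) for PANC-1 cells. All 6 epithelial markers had at least 10 counts in every library, with KRT8, a keratin of simple epithelia, the most abundant. Their levels differed between the lines. CDH1 had 9906 and 14345 counts in SW1990 but 59 and 65 in PANC-1 cells, and EPCAM had 7348 and 7552 against 108 and 113. KRT7 was low in both, with 99 and 102 counts in SW1990 and 145 and 97 in PANC-1 cells. Of 6 leukocyte markers, CD3E had 0 counts in all 4 libraries and PTPRC had at most 2 counts. The most abundant leukocyte marker was CD14, with 39 and 56 counts in SW1990 and 26 and 52 in PANC-1 cells, and ITGAM had 10 and 15 counts in PANC-1 cells. Of 6 fibroblast markers, COL1A1 had 103 and 165 counts in SW1990 and 965 and 1315 in PANC-1 cells, and COL3A1 had 80 and 77 counts in PANC-1 cells. PDGFRB was called lower in SW1990 cells with 129 and 63 counts. By FPKM, 1.56 and 1.03, its log2 ratio was -0.60, which is within the 2-fold limit and ends the call. DCN and PDGFRA were at 0 in every library. Of 3 endothelial markers in SW1990 cells, VWF had 14 and 50 counts, CDH5 went the other way with 8 and 0, and PECAM1 had 0 and 2. The part of these marker genes in the results was not tested.

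Interferons are secreted proteins that bind receptors on the cell surface and activate the kinases JAK1 and TYK2. These phosphorylate STAT2, which acts with IRF9 in a complex that enters the nucleus, binds a short promoter sequence named the interferon-stimulated response element, and switches on genes whose products degrade viral RNA, block virus entry or limit translation. In tumour cells the same genes can be active without infection, and DNA damage is among the stimuli known to induce them.

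The core of the response element, written as GAAA, any 2 bases and GAAA again, was searched on both strands in the 300 bases around each RefSeq transcription start (250 before it and 50 after it, GRCh38.p14). A promoter was given for 31 of the 39 genes, and 22 of these (71.0%) held it, against 4.38% of all 27305 genes with a promoter in the same set. The letters TTCNNNGAA, the core of the gamma-activated site, were held by 11 of 31 (35.5%), against 9.38% of all genes. The windows below lie before the start of 8 of the genes. Among them, ISG15 had at least 464 counts in every library while CXCL10 had 0 in every library. They are not all the matches. IFIT5, ISG20 and IFITM3 also hold the core and are not shown. Their counts in PANC-1 cells were lower after 10 Gy, with 472 and 264, 536 and 333, and 1686 and 1103. Each is written 5′ to 3′ on the strand of its gene, and capitals mark every match of the core or of its reverse complement, TTTC, any 2 bases and TTTC again. The ISG15 window holds a pair of overlapping matches, and those of IFIT1 and IFI27 hold a pair each.
ISG15, chr1:1013375-1013414, plus strand: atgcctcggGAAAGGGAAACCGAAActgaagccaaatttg
IFI6, chr1:27672324-27672363, minus strand: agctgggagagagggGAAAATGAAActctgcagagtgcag
IFIT1, chr10:89392505-89392544, plus strand: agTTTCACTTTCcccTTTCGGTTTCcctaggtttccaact
SAMD9, chr7:93118091-93118130, minus strand: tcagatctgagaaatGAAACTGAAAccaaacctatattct
HERC5, chr4:88457030-88457069, plus strand: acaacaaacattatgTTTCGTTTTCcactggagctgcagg
IFI27, chr14:94110626-94110665, plus strand: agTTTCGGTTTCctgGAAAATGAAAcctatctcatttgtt
RSAD2, chr2:6877617-6877656, plus strand: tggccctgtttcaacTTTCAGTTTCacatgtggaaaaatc
CXCL10, chr4:76023694-76023733, minus strand: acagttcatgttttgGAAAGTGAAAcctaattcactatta
A match of letters is a description of the sequence and does not show that a protein was bound there. The 9 genes whose given promoter held no match were HERC6, IFI35, IRF1, IRF9, OAS1, SAMD9L, STAT2, UBE2L6 and XAF1. No promoter was read for IFIT2, IFITM2, IRF7, MX2, OAS2, OASL, TRIM22 and USP18.

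Many of the genes were transcribed in unirradiated cells, and their summed counts were higher in SW1990 cells. Their counts together made up 0.107% of all gene counts in unirradiated SW1990 cells and 0.129% after 10 Gy, against 0.0365% and 0.0427% in PANC-1 cells. OAS3, IFITM3 and PARP14 held 62.0% of these counts in unirradiated SW1990 cells. The IFIT family went the other way, with a summed level of 26.0 CPM in unirradiated SW1990 and 47.8 CPM in unirradiated PANC-1 cells and of 28.1 and 45.3 CPM after 10 Gy. So did the 9 other antiviral effectors, with 36.7 and 57.4 CPM without radiation and 52.1 and 53.1 CPM after it. The summed level of the 4 transcription factors was nearly the same without radiation, with 80.0 CPM in SW1990 and 81.4 CPM in PANC-1 cells. After 10 Gy it was 83.2 and 105 CPM, of which STAT2 had 44.4 and 65.6 CPM. IRF7 was higher in SW1990 cells, with 13.1 against 10.6 CPM without radiation and 13.7 against 8.38 CPM after it. CPM is the count divided by the scaled library size in units of 1e6 counts. At least 10 counts in 1 library of a line, the minimum for a gene to be described in that line, were reached in SW1990 cells by 34 genes and in PANC-1 cells by 26. The 8 genes above this minimum in SW1990 cells alone were HERC6, OAS2, OASL, MX1, RSAD2, TRIM22, SAMD9L and EPSTI1, and 0 of the genes were above it in PANC-1 cells alone. Of all 20191 genes above it in either line, 12.1% were so in SW1990 cells alone and 10.7% in PANC-1 cells alone. Near the minimum, the higher count of RSAD2 and of EPSTI1 in SW1990 cells was 12 and that of BST2 was 6, while in PANC-1 cells that of IFI27 was 10 and that of TRIM22 was 7. The 5 genes under it in both lines were BST2, IFI44, XAF1, IFI44L and CXCL10. BST2, which tethers budding virus to the cell surface, had 6 counts in irradiated SW1990 cells and 0 in the other libraries. IFI44 had 3 counts and XAF1 1 count in the same library, and 0 elsewhere. IFI44L and CXCL10, a chemokine that attracts T cells, had 0 counts in all 4 libraries. A count of 0 allows a level of up to 0.158 CPM in irradiated SW1990 cells, the highest such limit of the 4 libraries, where the limit is 3 counts.

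**Figure D1:**
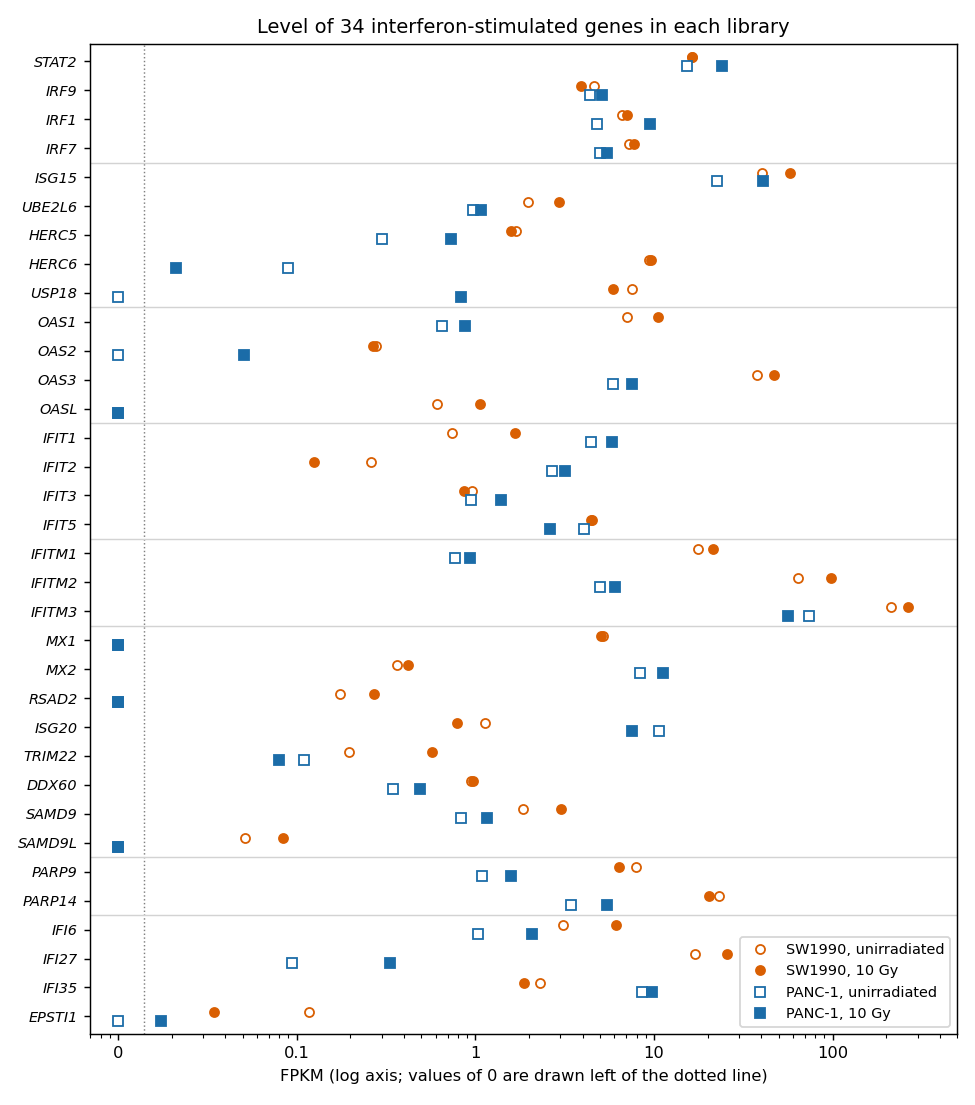
Level of the 34 interferon-stimulated genes with at least 10 counts in 1 library of either line, in FPKM on a log axis, 1 point per library, with genes grouped by role. Circles are SW1990 and squares PANC-1 cells, open symbols are unirradiated and filled ones 10 Gy, and values of 0 are drawn left of the dotted line. The symbols of MX1, OASL, RSAD2 and SAMD9L stand at 0 in both PANC-1 libraries, and IFITM3 is the highest gene in every library.

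FPKM, as computed by the authors, corrects for the length of the transcript and the depth of the library, and levels of different genes are compared on this scale. IFITM3, a membrane protein that keeps viruses from fusing with endosomes, stood at 211 FPKM in unirradiated and 266 FPKM in irradiated SW1990 cells, and at 73.9 and 56.3 FPKM in PANC-1 cells. It was the most abundant of the genes in all 4 libraries. Next in SW1990 cells came its relative IFITM2 with 64.3 and 98.2 FPKM, then ISG15 with 40.1 and 57.9 FPKM, and OAS3 with 37.6 and 47.2 FPKM. In PANC-1 cells ISG15 was second with 22.6 and 40.6 FPKM, followed by STAT2 with 15.3 and 24.0 FPKM. A level of at least 10 FPKM was reached by 8 and 9 of the genes in unirradiated and irradiated SW1990 cells, and by 4 in either PANC-1 library.

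In each line the reads of the irradiated library were compared with those of the unirradiated one by a conditional binomial test, and a gene was called when q was under 0.001 and the counts differed by more than 2-fold. In SW1990 cells 25 of the 39 genes were tested and 0 were called, while 2.26% of all tested genes were called higher and 1.88% lower. Of the 34 genes described in this line, 27 were higher and 7 lower in the irradiated library by log2 ratio of scaled counts, with a median of 0.33 against a median of 0.004 over all 18030 genes with as many counts. By FPKM 22 of the 34 were higher, beside 8676 of the 18030 genes, and the median was 0.08 against -0.02 over all genes. The 95% counting interval of the ratio lay above 1 in 14 genes (41.2%) and below 1 in 2 genes (5.88%), where 25.2% and 22.3% of all genes did so. The fold changes were small, and only 2 genes with at least 10 counts in both libraries, IFIT1 and IFIT2, differed by more than 2-fold. The count of calls depends on how the libraries are scaled. IFI6 and IFIT1 were called when the scaling factors came from all 4 libraries or from DESeq2. Of all 15731 tested genes, 376 were then called higher and 284 lower with factors from all 4 libraries. With DESeq2 factors it was 386 and 279. The factors from the tested genes of the line were adopted after both outcomes had been seen, because the series had been processed in that way before.

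In PANC-1 cells 20 of the genes were tested and 0 were called, while 2.48% of all tested genes were called higher and 2.21% lower. Of 26 genes described in this line, 22 were higher and 4 lower in the irradiated library, with a median log2 ratio of 0.26 against 0.01 over 17757 genes. By FPKM 23 of the 26 were higher, beside 10098 of the 17757 genes, and the median was 0.44 against 0.07 over all genes. The interval lay above 1 in 11 genes (42.3%) and below 1 in 4 genes (15.4%), where 27.4% and 26.1% of all genes did so. Without the filter on FPKM, USP18 and HERC5 were called higher, beside 527 higher and 386 lower of all 26273 genes then tested.

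**Figure D2:**
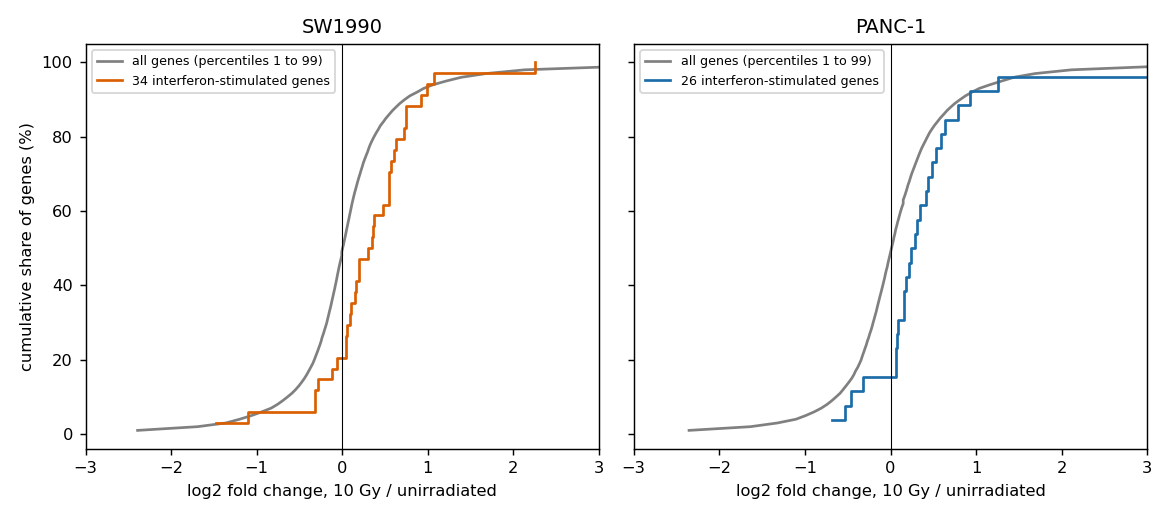
Cumulative share of genes (%) by log2 fold change, 10 Gy over unirradiated, in SW1990 (left) and PANC-1 cells (right). The coloured steps are the 34 and 26 interferon-stimulated genes with at least 10 counts in 1 library of the line and the grey line is all genes with as many counts, drawn from percentile 1 to 99. At a log2 fold change of 0 the coloured line stands lower than the grey line in both panels, with 7 of 34 and 4 of 26 genes below 0. The axis ends at 3, and USP18 in PANC-1 cells lies beyond it.

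The same 26 genes could be read in both lines. Of these 16 (61.5%) were higher after 10 Gy in both lines and 0 were lower in both, where 27.5% and 27% of 15596 genes with as many counts were so. The counting interval lay above 1 in both lines for 7 genes (26.9%, against 9.87% of all genes), IRF1, ISG15, OAS3, IFIT1, SAMD9, PARP14 and IFI6. It lay on opposite sides for IFITM3 and USP18 (7.69%, against 12.2%). These shares were not tested.

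**Figure D3:**
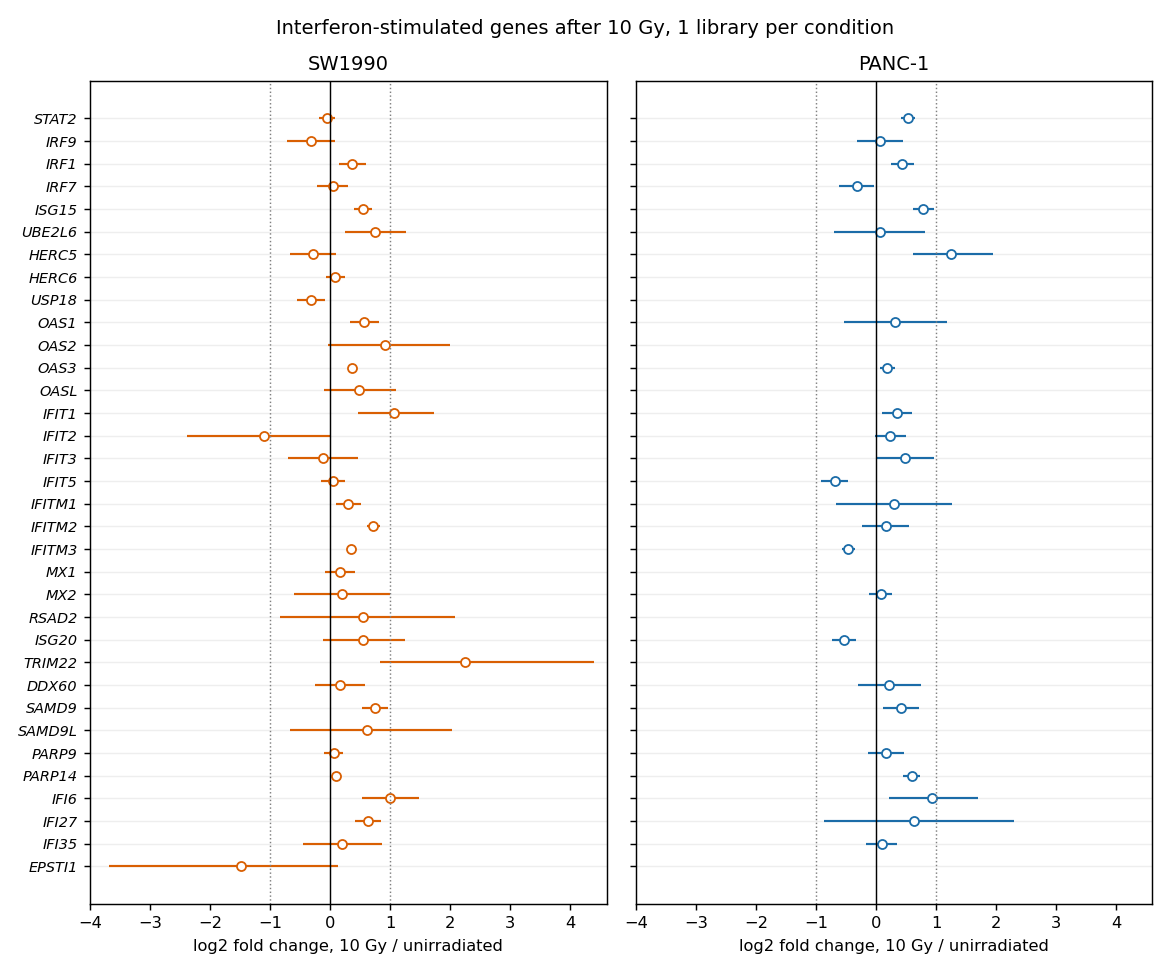
Log2 fold change of each gene, 10 Gy over unirradiated, in SW1990 (left) and PANC-1 cells (right), from scaled counts of 1 library per condition. Bars are 95% Clopper-Pearson intervals that cover counting error only, and dotted lines mark the 2-fold limits. Genes under 10 counts in both libraries of a line are left out of its panel, as is USP18 in PANC-1 cells, which went from 0 to 45 counts. ISG15, IFI6, IFIT1 and SAMD9 lie right of 0 in both panels with their whole bars.

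Among the transcription factors, IRF1, which is induced by interferon and by other stress signals, had 293 counts before and 378 after 10 Gy in SW1990 cells, and 404 and 492 in PANC-1 cells. This is a log2 ratio of 0.36 (95% interval 0.14 to 0.59) and 0.43 (0.24 to 0.63), while the log2 ratio of its FPKM was 0.08 in SW1990 and 0.99 in PANC-1 cells. Of its exonic bases, 28.0% overlap genes on the opposite strand, one of which had more counts than IRF1 itself in at least 1 library, and reads of these genes may have been counted with IRF1. STAT2 had 871 and 841 counts in SW1990 cells, a log2 ratio of -0.06 (-0.19 to 0.08), and 987 and 1284 counts in PANC-1 cells, a log2 ratio of 0.53 (0.41 to 0.65). IRF9, the DNA-binding partner of STAT2, had 121 and 97 counts in SW1990 cells and 124 and 117 in PANC-1 cells, with both intervals including 0. An overlapping gene on the same strand shares 48.4% of its exonic bases, so reads there may have been counted for either gene. IRF7, which drives transcription of interferon genes, had 251 and 259 counts in SW1990 cells. In PANC-1 cells it had 228 and 164 counts, a log2 ratio of -0.33 (-0.63 to -0.03), but its FPKM was slightly higher after radiation, 4.98 and 5.44.

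The ISG15 system attaches a ubiquitin-like protein to other proteins. ISG15 itself (chr1:1001138-1014541, plus strand) had 628 counts before and 921 after 10 Gy in SW1990 cells, and 464 and 721 counts in PANC-1 cells. The irradiated library was the higher in both lines, with a log2 ratio of 0.55 (0.40 to 0.70) in SW1990 and 0.78 (0.61 to 0.96) in PANC-1 cells. UBE2L6, the conjugating enzyme, had 54 and 91 counts in SW1990 cells, a log2 ratio of 0.74 (0.25 to 1.26), and 33 and 31 counts in PANC-1 cells. HERC5, the main ligase of ISG15 in human cells, had 131 and 108 counts in SW1990 cells, a log2 ratio of -0.28 (-0.67 to 0.09). In PANC-1 cells it had 30 and 65 counts, a log2 ratio of 1.25 (0.62 to 1.94), at 0.300 and 0.733 FPKM. HERC6, a relative of HERC5, had 614 and 654 counts in SW1990 cells against 6 and 2 in PANC-1 cells.

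USP18, the protease that removes ISG15 and also dampens the interferon receptor, went in opposite directions. It had 350 counts in unirradiated and 281 in irradiated SW1990 cells, a log2 ratio of -0.32 (-0.55 to -0.09). In PANC-1 cells it had 0 counts without radiation and 45 after it, which is at least 16.6-fold higher when 3 counts are set for the unirradiated library. It was not tested in PANC-1 cells because its FPKM stayed under 1, at 0.838. Of its exonic 50-base words, 23.4% also occur in another gene, which is the near copy USP41, AC023490.3 or AP000550.4. USP41 itself had 0 and 7 counts in the same libraries. The split of reads among these genes is uncertain.

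The OAS enzymes make short oligoadenylates that activate the RNA-degrading enzyme RNase L. OAS3 (chr12:112938352-112973249, plus strand) had the most counts of all 39 genes in either SW1990 library, 4927 without and 6390 with radiation, against 994 and 1019 in PANC-1 cells. Its log2 ratio was 0.37 (0.32 to 0.42) in SW1990 and 0.18 (0.06 to 0.31) in PANC-1 cells. OAS1 had 249 and 371 counts in SW1990 cells, a log2 ratio of 0.57 (0.33 to 0.81), and only 24 and 27 counts in PANC-1 cells. OAS2 had 14 and 27 counts in SW1990 cells, a log2 ratio of 0.92 (-0.04 to 1.99), while its FPKM of 0.280 and 0.268 showed no such difference. It had 0 and 6 counts in PANC-1 cells. OASL, a relative without the enzymatic activity, had 42 and 59 counts in SW1990 cells and 0 in both PANC-1 libraries. All 4 OAS genes were thus higher in the irradiated SW1990 library by counts, with intervals above 0 for OAS1 and OAS3.

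IFIT proteins bind viral RNA that lacks the marks of cellular messenger RNA, and the 4 genes of the family did not move together. IFIT1 (chr10:89392546-89406486, plus strand) had 33 and 70 counts in SW1990 cells, a log2 ratio of 1.07 (0.46 to 1.72), and 245 and 281 counts in PANC-1 cells, a log2 ratio of 0.35 (0.09 to 0.60). IFIT2 had 22 and 10 counts in SW1990 cells, a log2 ratio of -1.11 (-2.39 to -0.01), and 239 and 254 counts in PANC-1 cells. IFIT3 had 53 and 49 counts in SW1990 cells and 69 and 87 counts in PANC-1 cells, with log2 ratios of -0.12 (-0.71 to 0.47) and 0.48 (0.01 to 0.96). IFIT5 had 391 and 404 counts in SW1990 cells. In PANC-1 cells it had 472 and 264 counts, a log2 ratio of -0.69 (-0.91 to -0.47), the lowest of the 26 genes described in that line.

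The 3 IFITM genes were all higher in the irradiated SW1990 library. IFITM3 (chr11:319669-327537, minus strand) had 3662 and 4688 counts there, a log2 ratio of 0.35 (0.29 to 0.41), but 1686 and 1103 counts in PANC-1 cells, a log2 ratio of -0.46 (-0.57 to -0.35). IFITM2 had 1029 and 1699 counts in SW1990 cells, a log2 ratio of 0.72 (0.61 to 0.83), and 111 and 112 in PANC-1 cells. IFITM1 had 332 and 411 counts in SW1990 cells, a log2 ratio of 0.30 (0.09 to 0.52), and 19 and 21 in PANC-1 cells. The 3 genes share sequence, with 32.0%, 34.1% and 17.4% of the 50-base words of IFITM1, IFITM2 and IFITM3 found in another gene, so reads may have been exchanged among them.

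Among the other antiviral effectors, SAMD9, an inhibitor of poxvirus replication, had 277 and 466 counts in SW1990 cells, a log2 ratio of 0.74 (0.53 to 0.96), and 166 and 199 in PANC-1 cells, a log2 ratio of 0.41 (0.11 to 0.72). ISG20, an exonuclease that degrades viral RNA, had 32 and 47 counts in SW1990 cells, where its FPKM went the other way, from 1.13 to 0.792. In PANC-1 cells it had 536 and 333 counts, a log2 ratio of -0.54 (-0.74 to -0.34). TRIM22, an antiviral ubiquitin ligase, had 4 and 21 counts in SW1990 cells, a log2 ratio of 2.25 (0.82 to 4.39). This was the highest of the 34 genes described in this line and also the one with the widest interval above 0 among them. Of the 50-base words of TRIM22, 12.1% occur in another gene. The GTPases MX1 and MX2, the helicase DDX60, and RSAD2 and SAMD9L had intervals that included 0 in SW1990 cells. In PANC-1 cells those of MX2 and DDX60 included 0 as well.

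PARP14 and PARP9 transfer ADP-ribose and are found with the interferon pathway. PARP14 had 3236 and 3484 counts in SW1990 cells, a log2 ratio of 0.10 (0.03 to 0.17), and 677 and 919 counts in PANC-1 cells, a log2 ratio of 0.59 (0.44 to 0.73). By FPKM the direction in SW1990 cells was the opposite, from 23.2 to 20.3, and this was also so for PARP9, from 7.94 to 6.36, which had 642 and 671 counts. PARP9 had 186 and 187 counts in PANC-1 cells, a log2 ratio of 0.16 (-0.14 to 0.46).

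IFI6, a small protein of the endoplasmic reticulum and mitochondria that limits cell death, had about the same fold change in both lines. IFI6 (chr1:27666061-27672218, minus strand) had 58 and 116 counts in SW1990 cells, a log2 ratio of 0.99 (0.53 to 1.47), and 26 and 45 counts in PANC-1 cells, a log2 ratio of 0.93 (0.21 to 1.70). IFI27, a relative of IFI6, had 306 and 475 counts in SW1990 cells, a log2 ratio of 0.63 (0.42 to 0.84), and 7 and 10 counts in PANC-1 cells. IFI35 had 39 and 45 counts in SW1990 and 260 and 250 in PANC-1 cells, with both intervals including 0. EPSTI1 had 12 and 4 counts in SW1990 cells and 0 and 2 in PANC-1 cells.

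The ratios were also read by the response element core. Of the genes with a promoter and at least 10 counts in SW1990 cells, 15 of 18 with the core and 6 of 8 without it were higher after radiation, with median log2 ratios of 0.33 and 0.28. In PANC-1 cells 12 of 15 and 6 of 6 were higher, with medians of 0.35 and 0.20. This split was not tested.

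A joint fit of the 4 libraries (edgeR's quasi-likelihood test) had line and radiation as terms, which treats the lines as repeats of the radiation effect and leaves 1 residual degree of freedom. Of 30 interferon-stimulated genes in the fit, 0 changed with radiation at an adjusted p under 0.05, and neither did any of the 18180 genes fitted (0%). At an unadjusted p under 0.05 there were 2, ISG15 and IFI6, among 877 of all genes (4.82%). Their radiation coefficients were 0.67 ± 0.17 (SE) and 0.97 ± 0.38 on the log2 scale, each with an adjusted p of 0.942 by edgeR's quasi-likelihood test with Benjamini-Hochberg adjustment. DESeq2 called 39 genes and limma 0, none of them an interferon-stimulated gene.

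More of the genes differed between the lines. By the line coefficient of the same fit, 14 of 30 genes were higher in SW1990 cells and 5 were higher in PANC-1 cells, where 21.8% and 22.9% of all genes were called. The 14 were MX1, OASL, HERC6, IFI27, USP18, IFITM1, OAS1, IFITM2, OAS3, PARP14, PARP9, IFITM3, IFI6 and SAMD9, and the 5 were IFIT1, IFIT2, IFI35, ISG20 and MX2. The libraries of a line differ in treatment and are not replicates of one condition, so with radiation as a term the spread behind these tests comes from how the radiation differences of the lines depart from each other.

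**Figure D4:**
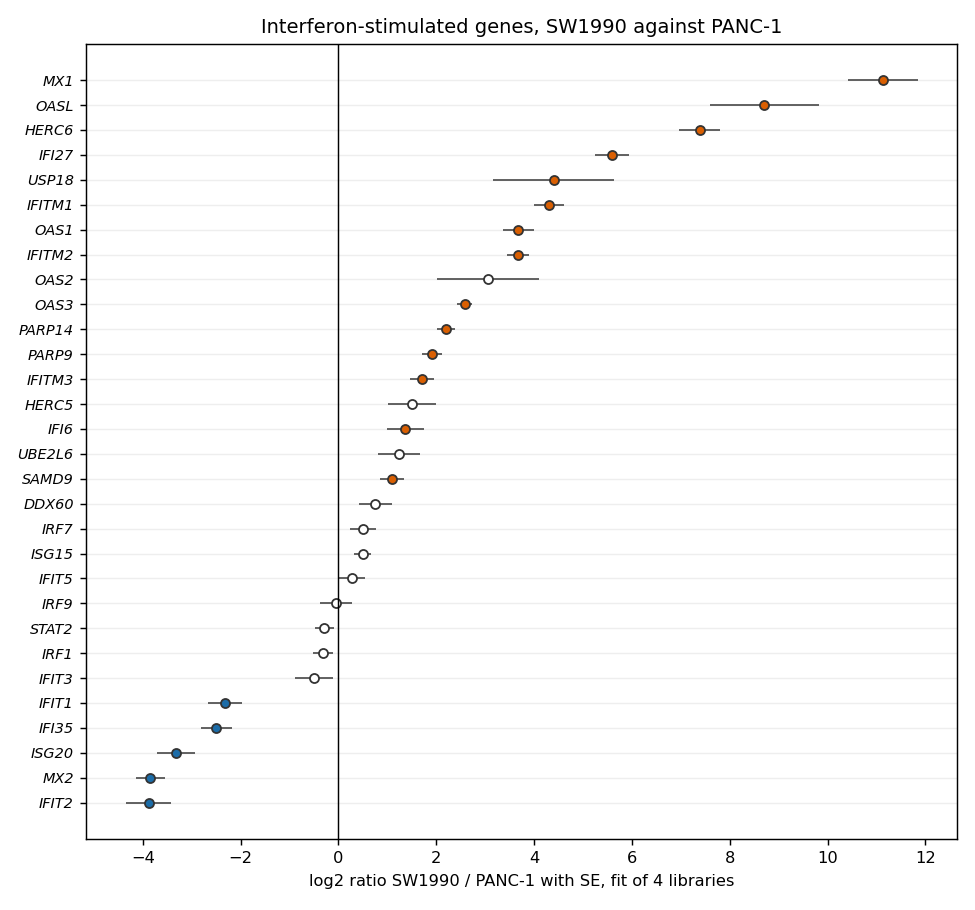
Log2 ratio of SW1990 over PANC-1 cells for the 30 interferon-stimulated genes in the fit of 4 libraries, with the standard error as bars. Filled points passed an adjusted p of 0.05, orange for higher in SW1990 and blue for higher in PANC-1 cells, and open points did not. MX1 and OASL had 0 counts in both PANC-1 libraries, so their plotted ratio depends on the count added by the fit.

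The MX pair went in opposite directions between the lines. MX1, a cytoplasmic GTPase that traps incoming viral particles, had 255 counts before and 286 after 10 Gy in SW1990 cells and 0 in both PANC-1 libraries. It was at least 94.8-fold higher in unirradiated and at least 98.6-fold higher in irradiated SW1990 cells, with 3 counts set for each PANC-1 library. MX2, its relative at the nuclear pore, had 27 and 31 counts in SW1990 but 460 and 437 in PANC-1 cells, a log2 ratio of SW1990 over PANC-1 of -3.84 ± 0.29 (SE, adjusted p = 0.000719, edgeR quasi-likelihood test).

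Of the genes with at least 10 counts in every library, those that differed most between the lines were IFITM1, IFIT2, MX2, OAS1, IFITM2 and ISG20. IFITM1 was higher in SW1990 cells by 4.30 ± 0.31 on the log2 scale, OAS1 by 3.68 ± 0.32 and IFITM2 by 3.67 ± 0.23. IFIT2 had a log2 ratio of -3.88 ± 0.46 and ISG20 one of -3.33 ± 0.38, both with more counts in PANC-1 cells. The OAS and IFITM families were higher in SW1990 cells in each member that passed the test, while IFIT1 and IFIT2 were higher in PANC-1 cells. IFIT3 and IFIT5 had log2 ratios of -0.50 ± 0.39 and 0.27 ± 0.27 and did not pass. HERC6 was 114-fold higher in unirradiated SW1990 than PANC-1 cells, and OASL at least 15.6-fold. IFI27 was 48.8-fold higher without radiation and 49.1-fold higher after it.

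The 4 transcription factors among the 39 genes did not pass the test between the lines. The log2 ratios were -0.29 ± 0.20 for STAT2, -0.05 ± 0.32 for IRF9, -0.32 ± 0.20 for IRF1 and 0.50 ± 0.27 for IRF7, with adjusted p-values between 0.182 and 0.916 by edgeR's quasi-likelihood test. ISG15, with an adjusted p of 0.0688 and a log2 ratio of 0.50 ± 0.17, did not pass either.

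The rest of the interferon pathway was described with 73 genes listed by role. Of 10 interferon genes, 9 had 0 counts in all 4 libraries, among them IFNB1, the interferon that most cell types make on infection, IFNG and IFNL1. The exception was IFNE, an interferon of epithelia, with 17 and 18 counts in SW1990 and 122 and 67 counts in PANC-1 cells. All 9 receptor chains and kinases had at least 10 counts in both lines, and 0 of the 9 tested in SW1990 and 0 of the 8 tested in PANC-1 cells were called after radiation, beside shares of all genes of 2.26% higher and 1.88% lower in SW1990 and 2.48% and 2.21% in PANC-1 cells. IFNLR1, the receptor chain specific to lambda interferons and named after its values were seen, had 527 and 513 counts in SW1990 and 8 and 17 in PANC-1 cells.

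Of 6 inhibitors of the pathway, 3 passed the test between the lines. PTPN2, named after its value was seen, and PTPN6 were higher in SW1990 cells, with log2 ratios of 0.73 and 1.505 and adjusted p-values of 0.0232 and 0.0168, and SOCS3 was higher in PANC-1 cells, with a log2 ratio of -6.22 and an adjusted p of 0.000655 (edgeR's quasi-likelihood test). SOCS3, which blocks receptor kinases, had 16 and 33 counts in SW1990 cells, a log2 ratio of 1.02 (0.14 to 2.00) after radiation. In PANC-1 cells it had 2599 and 1475 counts, a log2 ratio of -0.67 (-0.76 to -0.58). PTPN6, a phosphatase of the pathway, had 127 and 213 counts in PANC-1 cells, a log2 ratio of 0.89 (0.57 to 1.22), and 464 and 411 in SW1990 cells. Across the 58 of these pathway genes in the fit, 20 were higher in SW1990 and 8 in PANC-1 cells, beside the 21.8% and 22.9% of all genes given above.

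Of 42 further interferon-stimulated genes outside the 39, 38 reached the count minimum in SW1990 cells, with 29 higher and 9 lower after radiation (76.3% higher, against 50.4% of all genes) and a median log2 ratio of 0.16. In PANC-1 cells 34 did, with 27 higher and 7 lower (79.4% higher, against 51.2%) and a median of 0.23. Of 31 tested in SW1990 and 30 in PANC-1 cells, 1 was called, beside the same shares of all genes. It was APOL1, a secreted lipid-binding protein, which was lower in SW1990 cells with 94 and 43 counts, a log2 ratio of -1.13 (-1.69 to -0.60). By FPKM, 1.61 and 1.23, its log2 ratio was -0.39, which is within the 2-fold limit and ends the call. In PANC-1 cells APOL1 had 12 and 30 counts, a log2 ratio of 1.44 (0.46 to 2.57), and was not called.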

How the data were processed

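RNA of 4 cultures, 1 per cell line and treatment, was sequenced. Per the labels an mRNA library kit was used, while the sample descriptions also name removal of ribosomal RNA. The submitters' processing notes name Trimmomatic 0.36, HISAT2 2.0, StringTie 1.3.3b, DESeq2 1.12.4 and the build GRCh38. The authors deposited read counts per gene, not normalized, and FPKM values, scaled to transcript length and library size. The tool and strand setting behind the counts are not given in the sources used here.

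The 39 genes and the pathway lists were chosen with earlier results of these data known. Rows that name no gene, with between 0.453% and 0.635% of the counts, were left out. In each line, genes that reached 1 FPKM in either library were tested on the counts with edgeR 4.0.16 (exactTest at dispersion 0, values below 0 set to 0, TMM factors from the tested genes of the line, R 4.3.3) and called when q was under 0.001 and the fold over 2. These factors were adopted after calls with factors from all 4 libraries had also been seen. This compares libraries and not conditions. Log2 ratios have 0.5 added to each count before division by the scaled library size, and 95% Clopper-Pearson intervals cover counting error only. All 4 libraries were fitted with edgeR's quasi-likelihood test (filterByExpr, terms for line and radiation, common coefficient of variation 0.219), with DESeq2 1.42.0 and limma 3.58.1 as alternatives. The scripts were tested on simulated counts. Named with values were the 4 genes with the largest change in each line among those with at least 10 counts in both its libraries. Also named were the 8 with the highest mean FPKM and the transcription factors. To these were added the 6 with the largest difference between the lines (at least 10 counts in every library), those detected in 1 line, and other genes by role. Results for some listed genes are not reported here.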

Additional observations from a re-analysis of the deposited data

Results flagged for a closer look

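IFITM3 was higher after 10 Gy in SW1990 cells and lower in PANC-1 cells, with counting intervals on opposite sides, and its log2 ratio differed between the lines by 0.81. With 1 library per condition this difference was not tested. IFITM3 shares sequence with IFITM1 and IFITM2, and the part of this in the difference was not tested.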

How the results depend on the processing

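The 0 calls in SW1990 cells became 4 at a fold limit of 1.5 (IFI6, IFITM2, IFI27 and SAMD9), and 2 (IFI6 and IFIT1) with DESeq2 size factors or with TMM factors from all 4 libraries, the last added after seeing the data. They remained 0 with total counts, filterByExpr, no filter, FPKM ratios or an assumed coefficient of variation of 0.4. Of all 15731 genes tested in SW1990 cells, 665 were called with DESeq2 size factors and 660 with TMM factors from all 4 libraries. The 0 calls in PANC-1 cells became 3 at a fold limit of 1.5 (PARP14, ISG15 and IFIT5) and 2 with filterByExpr or without a filter (USP18 and HERC5). Of all genes tested in PANC-1 cells, 837 of 18180 were called with filterByExpr and 913 of 26273 without a filter. Over all genes, the fold limit of 1.5 raised the calls from 650 to 1456 in SW1990 and from 711 to 1786 in PANC-1 cells, and the assumed coefficient of variation of 0.4 lowered them to 15 (66.7% of them higher, against 54.6%) and 10 (4 of them higher). The median log2 ratio of the genes stayed above 0 in every alternative, from 0.08 (FPKM) to 0.36 in SW1990 and from 0.17 to 0.44 (FPKM) in PANC-1 cells. Leaving out genes with shared sequence, added after seeing the data, gave 0.20 and 0.28. FPKM put 11 of 60 gene ratios outside their counting interval and changed the sign of 8. Genes by line numbered between 17 and 20 in the alternatives, against 19, and genes by radiation 0 in each. Calls of all genes in PANC-1 cells were 52.9% higher, 61.6% with total counts. With 1 library per group no library could be left out, ratios that rest on fewer than 10 counts in a library are imprecise (RSAD2, SAMD9L, EPSTI1 and TRIM22 in SW1990 cells, IFI27 and USP18 in PANC-1 cells, all part of the medians, and every ratio between the lines for a gene with such a count), and the spread between cultures is unknown. The joint fit pairs the libraries by line, and the labels give no replicate numbers for another pairing.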
